A study of Cricetulus griseus with 24 samples.

Results

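The genes described here carry a secretory protein from the ribosome to the Golgi. They were taken by symbol from a table of read counts, and 50 of the 52 listed symbols matched 1 of its 28037 genes. Srpr and Srprb, named only, had no matching symbol, but Srpra, a later name of Srpr, was measured and is counted in the longer list at the end. Secretory proteins carry a signal peptide that the signal recognition particle (SRP) binds as it leaves the ribosome, which docks the ribosome at the Sec61 channel of the endoplasmic reticulum (ER). The TRAP complex assists passage through the channel, and signal peptidase removes the signal peptide. Folded cargo leaves the ER in vesicles with a COPII coat, COPI vesicles return escaped ER proteins, and SNAREs and tethers bring vesicles to their target membrane. An antibody heavy or light chain takes this route in any cell that secretes it.

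RNA came from Chinese hamster ovary (CHO) lines grown as serum-free suspension cultures and was read on an Illumina NextSeq from strand-specific TruSeq libraries. A0 is a low-producing CHO DG44 clone that makes a recombinant humanized IgG from 2 plasmids, 1 for the heavy chain and 1 for the light chain. A1 is a higher-producing progeny of A0 after amplification with methotrexate, and CHO-S is a nonproducing CHO line. The titles of the CHO-S libraries begin with NDST, which the labels do not explain. Each line was sampled at exponential and at stationary phase, with 4 cultures of A0 and 3 each of A1 and CHO-S per phase. The 8 exponential libraries of A0 carry 4 culture numbers and were summed per culture. Each secreting line is 1 clone and CHO-S is a different host, so antibody secretion and the identity of the line cannot be told apart in any comparison with CHO-S. No batch is recorded in the labels. Values are TMM-normalised read counts scaled to a common total (CPM), and a gene was called higher or lower at an edgeR adjusted p under 0.05 over all genes tested.

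Counts on genes ranged from 1038026 to 26584337 per culture. The smallest total belonged to CHO-S stationary culture 1, against 14290792 and 7516854 in the other 2 cultures of that group. In culture 1, 12792 genes had a count and 32.8% of the reads fell outside annotated genes, against 11.9% to 18.4% in every other library. Its log2 CPM values had a mean correlation across genes of 0.886 with the rest of its group, while every culture of the other 5 groups reached at least 0.984 with its own. Stationary results against CHO-S are therefore given with and without this culture. Exponential A0 cultures also differed from each other by more than sampling noise, with a chi-square per degree of freedom of 8.95 to 52.9 between pairs, against 1.68 to 2.29 in exponential CHO-S. For an equal difference this measure rises with depth, which was 23065838 to 26584337 counts in exponential A0 and 12449462 to 14652646 in exponential CHO-S. Stationary A0 cultures also differed, at 15.7 to 19.2 between cultures 1 or 2 and cultures 3 or 4, and 2.77 to 3.74 within these pairs. The main tests count the 4 A0 cultures as separate replicates, and whether each pair shares a source was not tested. Within A0 culture 1, the second library, marked RLT in its title, gave 26.8 against the first. With the first A0 libraries alone, 16 members were called higher against exponential CHO-S, where 27.5% of all genes were, and 17 lower, where 24.7% were. The share of reads that did not align was 2.31% to 3.06% in CHO-S, 3.13% to 9.41% in A0 and 7.49% to 11.5% in A1, and its part in the results was not tested.

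Marker genes of cell types were summed to describe the cells. These sums do not check which line or phase a library came from. All 5 genes listed as mesenchymal were measured and summed to 3971 to 10050 CPM per culture, with Actb the most abundant. At stationary phase the sums were 3971, 10050 and 9669 CPM in CHO-S cultures 1, 2 and 3. They were 4200 to 5195 CPM in stationary A0 and 4683 to 5315 CPM in stationary A1. Of 4 epithelial markers 2 were measured, and their sum was 0 to 0.220 CPM in CHO-S and 1.65 to 3.77 CPM in the secreting lines, mostly Epcam. The 4 blood markers summed to 0 to 0.629 CPM, with Ms4a1 at 0 in every culture. The 2 measured granulosa markers, of 4 listed, summed to 0 to 2.42 CPM, with Fshr at 0 throughout. Below, ± gives the standard error of a log2 fold change.

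The first question was whether the transport genes differ between cells that secrete an antibody and cells that do not during growth. All 50 measured members passed the count filter and averaged at least 5 CPM in every group they were compared in. Against exponential CHO-S, 16 members were higher in A0, where 27.6% of 19966 genes were called higher, and 16 were lower, where 21.9% were. In A1, 23 members were higher, where 30% of 18488 genes were, and 19 were lower, where 27.1% were. A measured difference of this kind does not separate fewer cells making an RNA from less RNA per cell, which cannot be told apart in bulk samples. The median log2 fold change of the members was -0.0004 in A0 and 0.10 in A1, beside 0.14 and 0.05 over all genes tested. Rises and falls among the members were about balanced. Among genes at 5 CPM or more, 65.7% were called in A0 and 76.2% in A1, beside 64% and 84% of the members. The members summed to 6947 to 8408 CPM over the 20 cultures, and the highest sum was that of CHO-S stationary culture 1. Furin and Srp68 had the largest fall and the largest rise in both lines. Both comparisons use the same 3 CHO-S cultures, so they are not independent of each other. With all 3 lines in one fit, 12 members were called higher in A1 in place of 23, where 22.8% of all genes were in place of 30%.

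**Figure D1:**
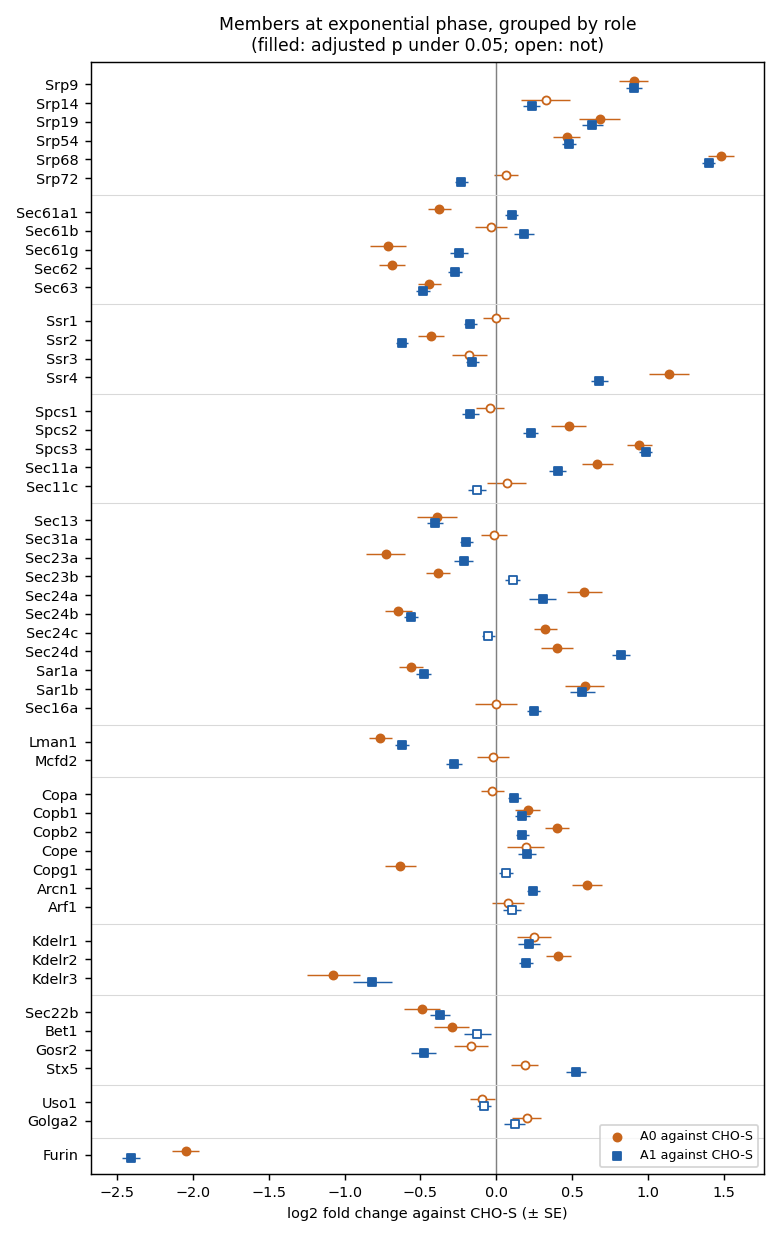
Log2 fold change against CHO-S at exponential phase (x axis, ± SE) of the 50 members, grouped by role, with A0 as circles and A1 as squares, filled where the adjusted p was under 0.05. Furin lies at the far left, at -2.05 in A0 and -2.41 in A1, and Srp68 at the far right, at 1.48 and 1.40.

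At stationary phase, the calls depended on CHO-S culture 1. In A0, 5 members were higher, where 20.7% of 19007 genes were called higher, and 12 were lower, where 19.3% were. Without culture 1 these became 17 higher, where 28% of 18990 genes were, and 15 lower, where 23.8% were. A1 had 3 members higher, where 18.2% of 18243 genes were, and 6 lower, where 16.6% were. Without culture 1 it had 13 higher, where 29.9% of 18204 genes were, and 20 lower, where 27.5% were. Median log2 fold changes of the members stayed near 0, at -0.03 in A0 and -0.04 in A1, and -0.02 and -0.03 without culture 1. Over all genes tested they were 0.08 and 0.06, and 0.13 and 0.07 without that culture. Of genes at 5 CPM or more, 49.3% were called in A0 and 41.7% in A1 with all cultures, beside 34% and 18% of the members. Without culture 1 these were 68.6% and 74.6%, beside 64% and 66%. Every member called with all 3 CHO-S cultures was called in the same direction without culture 1. With all cultures kept, other fits also moved the number higher in A0. It was 10 with DESeq2 (20.5% of all genes), 11 with library size only (23.6%) or with 3 lines in one fit (23.4%), and 8 with limma-voom (19.2%) or filterByExpr (26.7%). A replicate block, which also leaves out A0 culture 4, gave 3 higher (14.3% of all genes) and 5 lower (12.9%). In A1, library size only gave 8 higher (23.1% of all genes) and 3 lower (13.4%). With 3 lines in one fit 6 were higher (19.5%) and 10 lower (16.6%), and with the block 2 were lower (12.5%). Leaving out a different culture also moved these counts. Without CHO-S stationary culture 3, 2 members were higher in A0, where 16% of all genes were. Without CHO-S stationary culture 2 or any 1 stationary A1 culture, 2 were lower in A1, where 10.9% to 11.7% of all genes were.

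**Figure D2:**
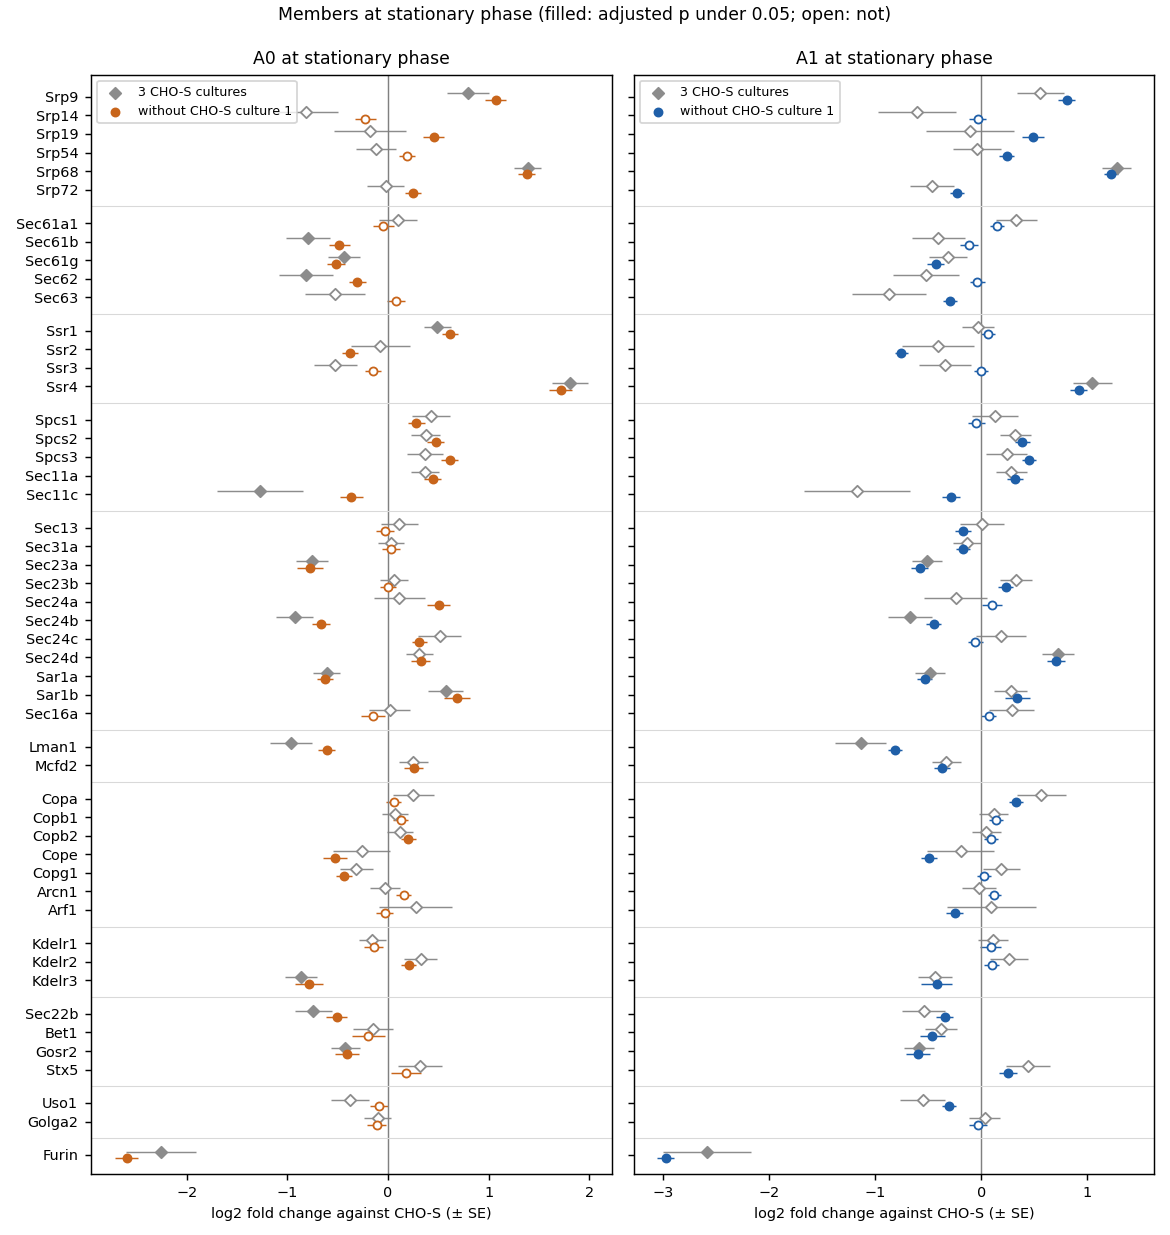
Log2 fold change against CHO-S at stationary phase (x axis, ± SE) of the 50 members in A0 (left) and A1 (right), with 3 CHO-S cultures as grey diamonds and without CHO-S culture 1 as coloured circles, filled where the adjusted p was under 0.05. In A0, 5 members were higher and 12 lower with culture 1, and 17 higher and 15 lower without it.

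Counts by role at exponential phase stand against 27.6% of all genes called higher and 21.9% lower in A0, and 30% and 27.1% in A1. Of the 6 measured SRP proteins, 4 were higher in A0 and 5 in A1 at exponential phase, and Srp72 was lower in A1 (-0.23). Srp68 forms a heterodimer with Srp72 on the RNA of the particle. At exponential phase it stood at 168, 177 and 177 CPM in the CHO-S cultures, 452, 479, 519 and 480.5 CPM in A0 and 454, 472 and 459 CPM in A1. Its stationary values were 179.6, 205 and 192 CPM in CHO-S, 535, 498, 496 and 507 CPM in A0 and 489, 470.1 and 458 CPM in A1. Every secreting culture lay far above every CHO-S culture at both phases, and CHO-S culture 1 did not stand apart for this gene. The exponential log2 fold change was 1.48 ± 0.09 (adjusted p = 3.74e-09) in A0 and 1.40 ± 0.04 (adjusted p = 3.97e-18) in A1, both from edgeR. At stationary phase edgeR gave 1.39 ± 0.13 (adjusted p = 2.49e-05) in A0 and 1.28 ± 0.13 (adjusted p = 0.000232) in A1, and 1.37 and 1.22 without culture 1.

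Srp9, which pairs with Srp14 in the domain that slows elongation, was at 63.7, 60.1 and 58.2 CPM in exponential CHO-S, 127, 114, 99.4 and 111 CPM in A0 and 114, 115 and 113 CPM in A1. In stationary cultures it was at 86.7, 50.2 and 51.9 CPM in CHO-S, 112, 114, 92.4 and 106 CPM in A0 and 88.0, 94.3 and 89.4 CPM in A1. No secreting culture overlapped CHO-S, although CHO-S culture 1 came close to A1 at stationary phase. The exponential difference by edgeR was 0.91 ± 0.10 (adjusted p = 2.19e-06) in A0 and 0.91 ± 0.05 (adjusted p = 6.08e-13) in A1. The stationary one was 0.79 ± 0.21 (adjusted p = 0.0122) in A0 and 0.56 ± 0.23 (adjusted p = 0.0891) in A1 by edgeR. Without culture 1 the edgeR values were 1.07 ± 0.10 (adjusted p = 3.69e-06) in A0 and 0.81 ± 0.08 (adjusted p = 2.79e-15) in A1. The call in A0 was lost when CHO-S stationary culture 3 was left out (adjusted p = 0.0648 by edgeR). Srp54, the GTPase that holds the signal peptide, had 109, 111 and 106 CPM in exponential CHO-S, 139, 151, 166 and 138 CPM in A0 and 147, 159 and 149.7 CPM in A1. At stationary phase it had 206, 119 and 126 CPM in CHO-S, 135, 137, 136 and 143 CPM in A0 and 139.9, 147 and 153 CPM in A1. All secreting cultures were above CHO-S during growth, while in stationary cultures they lay below CHO-S culture 1 and above the other 2. Exponential edgeR values were 0.47 ± 0.09 (adjusted p = 0.000493) in A0 and 0.48 ± 0.05 (adjusted p = 6.55e-09) in A1. Neither stationary difference passed (-0.12 in A0 and -0.04 in A1). Without culture 1 the sign turned, and edgeR called the gene in A1 (0.24 ± 0.07 (adjusted p = 0.00243)) and not in A0 (0.19 ± 0.08 (adjusted p = 0.0643)). Srp19, which helps Srp54 join the particle, was higher by 0.68 and 0.63 at exponential phase.

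Among the 5 Sec61 translocon genes, 4 were lower and none higher in A0 at exponential phase, and A1 had 2 higher and 3 lower. Sec61a1, the pore-forming subunit, was at 181, 178 and 176 CPM in exponential CHO-S, 134, 130.4, 137 and 143 CPM in A0 and 189, 193 and 195 CPM in A1. The 3 lines did not overlap during growth, with A0 lowest and A1 highest. By edgeR the difference from CHO-S was -0.38 ± 0.08 (adjusted p = 0.000887) in A0 and 0.10 ± 0.04 (adjusted p = 0.0477) in A1. The small A1 difference was no longer called when any of the 6 cultures was left out (adjusted p = 0.0552 to 0.136 by edgeR). At stationary phase Sec61a1 stood at 119.7, 191 and 189.7 CPM in CHO-S, 206, 194, 171 and 159 CPM in A0 and 214, 222 and 208 CPM in A1. There A0 overlapped CHO-S, A1 lay above it, and CHO-S culture 1 was lowest of all. Neither difference was called, at 0.10 in A0 and 0.33 in A1, or -0.05 and 0.15 without culture 1.

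Sec61b, a small subunit of the channel, was at 50.1, 45.8 and 42.7 CPM in exponential CHO-S, 50.8, 46.3, 41.5 and 40.4 CPM in A0 and 51.1, 51.3 and 55.6 CPM in A1. Its stationary values were 94.9, 51.2 and 53.7 CPM in CHO-S, 38.8, 38.4, 38.6 and 32.4 CPM in A0 and 46.5, 46.5 and 53.6 CPM in A1. A0 overlapped CHO-S during growth and lay below all CHO-S cultures at stationary phase. During growth edgeR gave -0.03 ± 0.10 (adjusted p = 0.807) in A0 and 0.18 ± 0.07 (adjusted p = 0.0238) in A1. The A0 sign turned, to at most 0.02, without A0 exponential culture 3 or 4 or CHO-S exponential culture 1. The A1 call was lost without A1 exponential culture 3 or CHO-S exponential culture 2 or 3 (adjusted p = 0.078 to 0.148 by edgeR). At stationary phase the difference was -0.80 ± 0.22 (adjusted p = 0.0141) in A0 by edgeR and -0.48 ± 0.10 (adjusted p = 0.00178) without culture 1. In A1 it did not pass either way (-0.41 and -0.12). Sec62 and Sec63, which assist the channel with cargo that arrives after translation, were both lower during growth. The log2 fold changes of Sec62 were -0.69 in A0 and -0.27 in A1, and those of Sec63 -0.44 and -0.48. Sec61g, the third channel subunit, fell by 0.71 in A0 and 0.25 in A1 on the log2 scale.

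The 4 TRAP subunits split. At exponential phase A0 had 1 higher and 1 lower, and A1 had 1 higher and 3 lower. Ssr4, the delta subunit, was at 68.6, 78.1 and 72.3 CPM in exponential CHO-S, 204, 160.4, 139 and 135 CPM in A0 and 115, 113 and 123 CPM in A1. In stationary cultures Ssr4 reached 46.4, 68.8 and 62.1 CPM in CHO-S, 247, 211, 198 and 197 CPM in A0 and 108, 134 and 135 CPM in A1. No 2 lines overlapped at either phase, and the order was CHO-S, A1 and A0 from low to high. Exponential differences by edgeR were 1.14 ± 0.13 (adjusted p = 4.89e-06) in A0 and 0.68 ± 0.06 (adjusted p = 3.18e-10) in A1. Stationary ones were 1.81 ± 0.18 (adjusted p = 2.98e-05) in A0 and 1.05 ± 0.19 (adjusted p = 0.00324) in A1 by edgeR, and 1.72 and 0.92 without culture 1. Ssr2, the beta subunit, went the opposite way, with 418, 421 and 410.1 CPM in exponential CHO-S, 329, 317, 302 and 277 CPM in A0 and 270.1, 269 and 275 CPM in A1. Its stationary cultures had 155, 451 and 423 CPM in CHO-S, 338, 314, 342 and 334 CPM in A0 and 245, 276 and 269.9 CPM in A1. All secreting cultures were below exponential CHO-S, and at stationary phase they lay between CHO-S culture 1 and the other 2. The exponential values by edgeR were -0.43 ± 0.08 (adjusted p = 0.000641) in A0 and -0.62 ± 0.04 (adjusted p = 3.78e-12) in A1. Stationary differences did not pass with culture 1 (-0.08 and -0.41). Without it Ssr2 was lower in A0, by -0.38 ± 0.08 (adjusted p = 0.00125), and in A1, by -0.75 ± 0.06 (adjusted p = 2.25e-18), from edgeR. Ssr1 was higher in stationary A0 (0.49, and 0.62 without culture 1). With culture 1 kept, that call was lost without A0 stationary culture 4 or CHO-S stationary culture 3 (adjusted p = 0.05 to 0.0759 by edgeR).

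Signal peptidase had 3 of its 5 genes higher in each secreting line at exponential phase, and Spcs1 was lower in A1 (-0.17), a call lost without CHO-S exponential culture 1 (adjusted p = 0.131 by edgeR). Spcs3, an essential accessory subunit, was at 142, 144 and 138 CPM in exponential CHO-S, 289.8, 270.2, 251 and 269 CPM in A0 and 277, 286 and 279.9 CPM in A1. Its stationary values were 265, 179 and 175 CPM in CHO-S, 285, 268, 249 and 265 CPM in A0 and 244, 243 and 248 CPM in A1. The secreting lines did not overlap exponential CHO-S, and at stationary phase CHO-S culture 1 lay among or above them while the other 2 were below. By edgeR the exponential difference was 0.94 ± 0.08 (adjusted p = 3.35e-07) in A0 and 0.99 ± 0.04 (adjusted p = 2.92e-15) in A1. The stationary difference did not pass (0.37 in A0 and 0.24 in A1). Without culture 1 it did, at 0.61 ± 0.08 (adjusted p = 5.7e-05) and 0.45 ± 0.07 (adjusted p = 1.07e-08) by edgeR.

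Spcs2, another accessory subunit, stood at 151, 141 and 136 CPM in exponential CHO-S, 215, 216, 206 and 152 CPM in A0 and 159.8, 177 and 166 CPM in A1. At stationary phase the cultures had 192, 169 and 163 CPM in CHO-S, 241, 237, 213 and 220.3 CPM in A0 and 207, 216 and 239 CPM in A1. All secreting cultures exceeded CHO-S, with A0 culture 4 only just above it during growth. The exponential edgeR values were 0.48 ± 0.12 (adjusted p = 0.00307) in A0 and 0.23 ± 0.05 (adjusted p = 0.000427) in A1. In A1 the call was lost with all 3 lines in one fit (adjusted p = 0.113 by edgeR). Stationary differences of 0.37 and 0.32 did not pass, and without culture 1 they did (0.47 and 0.39). Sec11a, a catalytic subunit, had 68.3, 64.0 and 66.5 CPM in exponential CHO-S, 121, 107, 92.9 and 96.1 CPM in A0 and 84.9, 90.6 and 88.9 CPM in A1. Its stationary counts were 86.7, 80.3 and 76.0 CPM in CHO-S, 114, 104, 103 and 100.2 CPM in A0 and 94.7, 104 and 99.5 CPM in A1. Again no secreting culture overlapped CHO-S. edgeR gave 0.67 ± 0.10 (adjusted p = 7.16e-05) in A0 and 0.41 ± 0.05 (adjusted p = 7.18e-07) in A1 during growth. The stationary values, 0.37 and 0.28, passed without culture 1 (0.44 and 0.32) and not with it.

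Sec11c, the alternative catalytic subunit, was at 63.7, 59.9 and 57.6 CPM in exponential CHO-S, 70.2, 74.3, 58.1 and 48.7 CPM in A0 and 53.1, 56.8 and 56.5 CPM in A1. In stationary cultures it was at 219.8, 56.1 and 56.2 CPM in CHO-S, 47.2, 46.6, 42.2 and 36.6 CPM in A0 and 46.8, 45.5 and 48.6 CPM in A1. A0 overlapped CHO-S during growth, all secreting cultures lay below CHO-S at stationary phase, and CHO-S culture 1 was far above the rest. During growth the values by edgeR were 0.07 ± 0.13 (adjusted p = 0.677) in A0 and -0.13 ± 0.06 (adjusted p = 0.071) in A1. The A0 value turned to -0.03 without A0 exponential culture 2. The A1 value passed without A1 exponential culture 2 or CHO-S exponential culture 3 (adjusted p = 0.0357 to 0.0491 by edgeR). At stationary phase they were -1.28 ± 0.43 (adjusted p = 0.0358) in A0 and -1.17 ± 0.50 (adjusted p = 0.106) in A1 by edgeR. Without culture 1 edgeR called the gene lower at a smaller size, -0.37 ± 0.11 (adjusted p = 0.0159) in A0 and -0.28 ± 0.08 (adjusted p = 0.00268) in A1. With culture 1 kept, leaving out any of the 4 A0 cultures ended the A0 call (adjusted p = 0.066 to 0.0837 by edgeR).

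The 11 COPII genes divided almost evenly, with 4 higher and 5 lower in each secreting line at exponential phase. Sec24d, a cargo-binding subunit of the inner coat, was at 49.4, 48.8 and 50.8 CPM in exponential CHO-S, 58.0, 58.0, 75.0 and 69.5 CPM in A0 and 84.4, 97.3 and 83.3 CPM in A1. Stationary cultures had 39.2, 40.4 and 44.2 CPM in CHO-S, 51.4, 51.3, 55.0 and 50.7 CPM in A0 and 65.7, 77.2 and 65.3 CPM in A1. The 3 lines did not overlap at either phase, with A1 highest. Exponential edgeR values were 0.40 ± 0.10 (adjusted p = 0.00509) in A0 and 0.82 ± 0.06 (adjusted p = 5.77e-11) in A1. At stationary phase they were 0.31 ± 0.14 (adjusted p = 0.0923) in A0 and 0.72 ± 0.15 (adjusted p = 0.00744) in A1 by edgeR. Without culture 1 edgeR gave 0.32 ± 0.09 (adjusted p = 0.0115) in A0 and 0.70 ± 0.09 (adjusted p = 2.1e-11) in A1. Its paralogue Sec24b moved down, from 134, 131 and 129 CPM in exponential CHO-S to 78.0, 80.9, 95.4 and 78.8 CPM in A0 and 89.9, 89.6 and 88.3 CPM in A1. At stationary phase Sec24b was at 168, 112 and 101 CPM in CHO-S, 61.0, 67.4, 68.7 and 68.6 CPM in A0 and 78.6, 82.3 and 78.0 CPM in A1. Every secreting culture was below every CHO-S culture at the same phase. By edgeR the exponential difference was -0.65 ± 0.09 (adjusted p = 2.71e-05) in A0 and -0.56 ± 0.05 (adjusted p = 4.51e-10) in A1. The stationary one was -0.93 ± 0.18 (adjusted p = 0.00259) in A0 and -0.67 ± 0.21 (adjusted p = 0.0373) in A1 by edgeR, and -0.67 and -0.45 without culture 1, both called. With culture 1 kept, the A1 call was lost without CHO-S stationary culture 2 or any A1 stationary culture (adjusted p = 0.0571 to 0.117 by edgeR).

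The GTPases that start the coat also went apart. Sar1b was at 17.5, 16.5 and 17.2 CPM in exponential CHO-S, 30.6, 26.0, 21.7 and 22.97 CPM in A0 and 25.4, 24.3 and 26.4 CPM in A1. Its stationary values were 25.8, 19.3 and 19.6 CPM in CHO-S, 36.6, 30.3, 29.2 and 27.9 CPM in A0 and 24.5, 24.4 and 26.4 CPM in A1. The secreting cultures lay above exponential CHO-S, and at stationary phase A0 was still above it while A1 overlapped culture 1. During growth Sar1b was higher by 0.58 ± 0.13 (adjusted p = 0.00146) in A0 and 0.57 ± 0.08 (adjusted p = 3.2e-06) in A1 from edgeR. At stationary phase edgeR gave 0.57 ± 0.17 (adjusted p = 0.0223) in A0 and 0.28 ± 0.15 (adjusted p = 0.2) in A1. Without culture 1 edgeR gave 0.68 ± 0.13 (adjusted p = 0.000828) in A0 and 0.34 ± 0.12 (adjusted p = 0.00894) in A1. With culture 1 kept, the A0 call was lost without A0 stationary culture 1 or 2 or CHO-S stationary culture 2 or 3 (adjusted p = 0.0523 to 0.113 by edgeR). Sar1a was lower, with exponential values of -0.56 in A0 and -0.48 in A1. Of the Sec23 pair, which stimulates GTP hydrolysis by the GTPase, Sec23a was lower in both lines (-0.73 and -0.21) and Sec23b in A0 (-0.38). Sec24a was higher in both (0.58 and 0.31), and Sec24c in A0 (0.32). Of the outer coat, Sec13 was lower in both lines (-0.39 and -0.40) and Sec31a in A1 (-0.20). Sec16a, which organises ER exit sites, was higher in A1 (0.25). The A0 call of Sec13 was lost without A0 exponential culture 3 or 4 or CHO-S exponential culture 2 or 3 (adjusted p = 0.0559 to 0.0754 by edgeR). Those of Sec24a and Sec23a in A1 were each lost without a CHO-S exponential culture, culture 2 or 3 for Sec24a (adjusted p = 0.0612 to 0.0635 by edgeR) and culture 1 for Sec23a (adjusted p = 0.0555).

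The cargo receptor Lman1, which carries some glycoproteins out of the ER together with Mcfd2, was lower in both lines. It was at 292, 278 and 268 CPM in exponential CHO-S, 164, 167, 161 and 161 CPM in A0 and 182, 184 and 180.1 CPM in A1. Stationary values were 629.6, 357 and 353 CPM in CHO-S, 240.0, 244, 212 and 224 CPM in A0 and 202, 201 and 213 CPM in A1. No secreting culture reached the lowest CHO-S culture of its phase, and CHO-S culture 1 was the highest. The exponential difference by edgeR was -0.77 ± 0.08 (adjusted p = 1.21e-06) in A0 and -0.62 ± 0.04 (adjusted p = 2.13e-11) in A1. The stationary one was -0.97 ± 0.21 (adjusted p = 0.0044) in A0 and -1.14 ± 0.24 (adjusted p = 0.00759) in A1 by edgeR, and -0.61 and -0.81 without culture 1. Mcfd2 had 95.9, 88.6 and 87.6 CPM in exponential CHO-S, 104, 86.3, 74.1 and 90.2 CPM in A0 and 73.8, 73.3 and 78.0 CPM in A1. At stationary phase it had 99.1, 108 and 104 CPM in CHO-S, 134, 132, 112 and 120.4 CPM in A0 and 87.0, 85.1 and 78.9 CPM in A1. A0 overlapped CHO-S during growth and lay above it later, while A1 was below CHO-S at both phases. During growth edgeR gave -0.02 ± 0.11 (adjusted p = 0.876) in A0 and -0.28 ± 0.06 (adjusted p = 0.000138) in A1. The A0 sign turned, to at most 0.05, without A0 exponential culture 3 or CHO-S exponential culture 1. At stationary phase neither passed (0.25 and -0.33). Without culture 1 it was higher in A0, by 0.25 ± 0.09 (adjusted p = 0.0395), and lower in A1, at -0.37 ± 0.07 (adjusted p = 7.72e-06), from edgeR.

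Of the 7 COPI genes, 3 were higher and 1 lower in A0 at exponential phase, and 5 were higher and none lower in A1. Copa, the alpha subunit of the coatomer, was at 281, 267 and 254 CPM in exponential CHO-S, 262, 251, 264 and 267 CPM in A0 and 283, 300.4 and 292 CPM in A1. At stationary phase Copa was at 139, 255 and 269 CPM in CHO-S, 272, 274, 268 and 260.0 CPM in A0 and 336, 338 and 326 CPM in A1. A0 overlapped CHO-S, A1 lay above it at both phases, and CHO-S culture 1 was far below every other culture. Exponential values by edgeR were -0.02 ± 0.08 (adjusted p = 0.813) in A0 and 0.12 ± 0.05 (adjusted p = 0.0269) in A1. The A0 value was 0.0007 without CHO-S exponential culture 1. The A1 call was lost without A1 exponential culture 2 or 3 or CHO-S exponential culture 2 or 3 (adjusted p = 0.0739 to 0.169 by edgeR). Stationary values of 0.25 and 0.56 did not pass, and without culture 1 A1 was higher by 0.33 ± 0.07 (adjusted p = 8.14e-06) from edgeR.

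Copg1, a gamma subunit, was at 275, 284 and 271 CPM in exponential CHO-S, 161, 153, 186 and 208 CPM in A0 and 274, 289 and 306 CPM in A1. Its stationary values were 188, 278 and 273 CPM in CHO-S, 203, 212, 192 and 198 CPM in A0 and 289, 297 and 271 CPM in A1. A0 lay below exponential CHO-S without overlap, and A1 ran alongside CHO-S. At stationary phase A0 was above CHO-S culture 1 and below the other 2. By edgeR the exponential difference was -0.63 ± 0.10 (adjusted p = 0.000119) in A0 and 0.06 ± 0.05 (adjusted p = 0.252) in A1. With counts scaled by library size only, the A1 value was 0.13 and passed (adjusted p = 0.0146 by edgeR). At stationary phase A0 did not pass (-0.32) until culture 1 was left out (-0.44 ± 0.08 (adjusted p = 0.000468), by edgeR), and A1 was at 0.19 and 0.03. Among the other coatomer genes, Arcn1, the delta subunit, was higher by 0.60 in A0 and 0.24 in A1 during growth, and Copb2 by 0.40 and 0.17. Copb1 was higher by 0.21 and 0.17, but its A0 call was lost when any exponential culture other than A0 culture 3 was left out (adjusted p = 0.0512 to 0.216 by edgeR). No COPI gene was called in stationary cells with all CHO-S cultures, by edgeR. Of all genes, 20.7% were higher and 19.3% lower there in A0, and 18.2% and 16.6% in A1. Without culture 1, each line had 1 higher and 2 lower, among them Cope, at -0.53 in A0 and -0.50 in A1. The shares of all genes were then 28% higher and 23.8% lower in A0, and 29.9% and 27.5% in A1.

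The KDEL receptors catch ER chaperones in the Golgi for return. Kdelr3 was at 10.9, 12.1 and 12.4 CPM in exponential CHO-S, 4.58, 4.63, 5.33 and 7.73 CPM in A0 and 7.12, 5.72 and 7.24 CPM in A1. Stationary Kdelr3 was at 17.5, 14.4 and 14.4 CPM in CHO-S, 7.91, 8.74, 8.42 and 8.02 CPM in A0 and 12.4, 11.6 and 9.32 CPM in A1. All secreting cultures were below CHO-S at both phases. The exponential difference from edgeR was -1.07 ± 0.18 (adjusted p = 0.000131) in A0 and -0.82 ± 0.13 (adjusted p = 6.79e-06) in A1. The stationary one was -0.86 ± 0.16 (adjusted p = 0.00163) in A0 and -0.44 ± 0.16 (adjusted p = 0.066) in A1 by edgeR, and -0.78 ± 0.14 (adjusted p = 0.000451) and -0.42 ± 0.14 (adjusted p = 0.008) without culture 1. Kdelr2 was higher during growth in both lines (0.41 and 0.20), and Kdelr1 in A1 (0.21). The Kdelr1 call was lost without A1 exponential culture 3 or CHO-S exponential culture 3 (adjusted p = 0.09 to 0.0938 by edgeR). Of 4 SNAREs that fuse vesicles with the Golgi, Sec22b was lower in both lines at exponential phase (-0.49 and -0.37). Bet1 was lower in A0 (-0.29), Gosr2 was lower in A1 (-0.48) and Stx5 was higher in A1 (0.52). The Bet1 call was lost without A0 exponential culture 2 or 3 or CHO-S exponential culture 1 or 2 (adjusted p = 0.065 to 0.192 by edgeR). The tethers Uso1 and Golga2 were not called in either line with all CHO-S cultures, and Uso1 was lower in stationary A1 without culture 1 (-0.30).

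Furin, the Golgi protease that cleaves proproteins, had the largest fall of all members. It was at 276, 238 and 265 CPM in exponential CHO-S, 62.5, 67.5, 62.4 and 56.8 CPM in A0 and 46.1, 52.3 and 48.8 CPM in A1. Stationary Furin was at 88.8, 341 and 275 CPM in CHO-S, 59.2, 51.8, 46.8 and 44.4 CPM in A0 and 42.5, 37.3 and 40.7 CPM in A1. CHO-S cultures stood above all secreting cultures, culture 1 by the smallest margin, and A1 was below A0 at each phase. By edgeR the exponential difference was -2.05 ± 0.09 (adjusted p = 2.14e-10) in A0 and -2.41 ± 0.06 (adjusted p = 1.04e-19) in A1. At stationary phase it was -2.26 ± 0.35 (adjusted p = 0.000521) in A0 and -2.59 ± 0.41 (adjusted p = 0.00188) in A1 by edgeR, and -2.60 and -2.98 without culture 1.

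**Figure D3:**
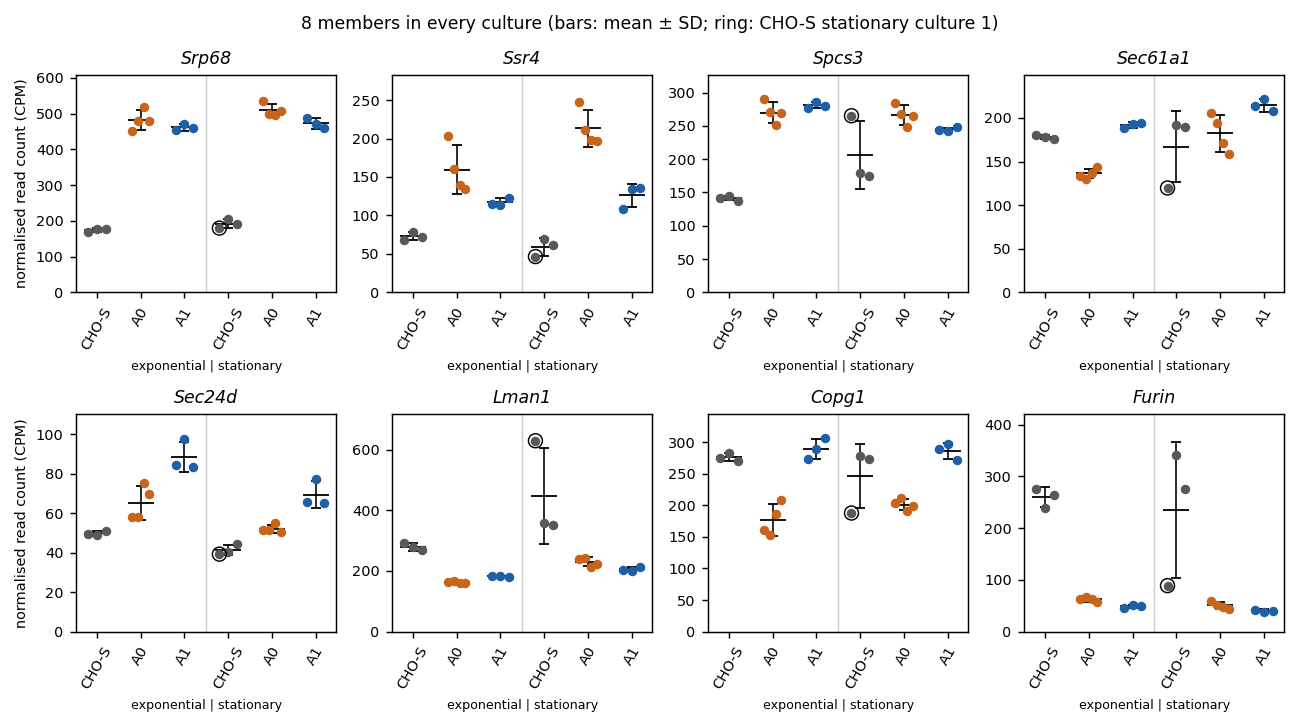
Normalised read count (CPM, y axis from 0) of 8 members in every culture of CHO-S, A0 and A1 at exponential (left of each panel) and stationary phase (right), with mean and SD bars and a ring around CHO-S stationary culture 1. Srp68 is higher in all secreting cultures than in CHO-S, Furin is lower, and Copg1 is lower in exponential A0 (153 to 208 CPM) than in CHO-S (271 to 284 CPM) and A1 (274 to 306 CPM).

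The comparison of A1 with A0 sets the amplified line beside its parent, and it uses no CHO-S culture. Each of these lines is 1 clone, so amplification and the identity of the clone cannot be told apart. At exponential phase 8 members were higher in A1, where 12% of 19946 genes were, and 5 were lower, where 13.8% were. At stationary phase 10 were higher, where 16% of 19293 genes were, and 12 were lower, where 17.7% were. The members' medians were 0.0013 and -0.03, beside -0.04 and -0.0021 over all genes. Copg1 had the largest rise, with no overlap between the lines, at 0.71 ± 0.11 (adjusted p = 0.000191) and 0.50 ± 0.07 (adjusted p = 6.35e-05) by edgeR at the exponential and stationary phases. Sec24d was also higher in A1, at 0.44 ± 0.11 (adjusted p = 0.00687) and 0.40 ± 0.08 (adjusted p = 0.00158) by edgeR. Ssr4 had the largest fall, at -0.45 ± 0.13 (adjusted p = 0.0168) and -0.76 ± 0.10 (adjusted p = 4.09e-05) by edgeR. Furin was lower, at -0.35 ± 0.09 (adjusted p = 0.0136) and -0.34 ± 0.10 (adjusted p = 0.0194) by edgeR. Sec61a1 rose in exponential cells (0.49 ± 0.08 (adjusted p = 0.000442), by edgeR) and had a stationary value of 0.22 that did not pass. Sec61g, Sec62, Sec23a and Sec23b were higher in exponential A1 by 0.48, 0.43, 0.53 and 0.51. At stationary phase Mcfd2 was lower in A1, at -0.59 ± 0.08 (adjusted p = 7.53e-05), and Sec61b higher, at 0.39 ± 0.10 (adjusted p = 0.00558), both by edgeR. Kdelr3 was higher (0.40) and Copa was higher (0.30).

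Some of these calls were lost when 1 culture was left out, which also leaves fewer replicates. Over such fits the log2 fold change kept its sign, at -0.52 to -0.31 for Ssr4, 0.36 to 0.51 for Sec24d and -0.40 to -0.30 for Furin at exponential phase. At stationary phase it was -0.40 to -0.26 for Furin, 0.31 to 0.43 for Sec61b and 0.33 to 0.51 for Kdelr3. Ssr4 at exponential phase was not called without any 1 of the A1 cultures (adjusted p = 0.0601 to 0.0809 by edgeR), nor Sec24d without A1 culture 2 (adjusted p = 0.0648). Furin at exponential phase lost its call when A0 culture 2, A1 culture 1 or A1 culture 3 was dropped (adjusted p = 0.0512 to 0.0877 by edgeR). At stationary phase Furin was not called without A1 culture 2 or 3 (adjusted p = 0.0545 to 0.11 by edgeR), nor Sec61b without A1 culture 3 (adjusted p = 0.0501). Kdelr3 at stationary phase was not called in 5 of 7 such fits, which dropped A0 culture 1, 3 or 4, or else A1 culture 1 or 2 (adjusted p = 0.0566 to 0.142 by edgeR). The number of members lower in exponential A1, 5 with all cultures, was 1 or 2 without A0 culture 2 or any 1 A1 culture, and 12 without A0 culture 4. Of all genes, 13.8% were lower with all cultures, 8.67% to 11.4% in the former fits and 16.6% in the latter. Members lower in exponential A1 were also more with a replicate block, 3 lines in one fit or first A0 libraries only, as listed at the end. Of all genes, 16.9%, 16.4% and 14.7% were lower in these fits. The blocked fit also leaves out A0 culture 4, which has no A1 culture of the same number. With all 3 lines in one fit, 2 members were higher and 4 lower in stationary A1, in place of 10 and 12, where 8.87% and 10.2% of all genes were in place of 16% and 17.7%. Members higher in stationary A1, 10 with all cultures, numbered 6 without A1 culture 2 or 3, where 12.1% and 12.4% of all genes were higher, against 16% with all cultures. Sec61g and Sec23a at exponential phase were not called without A1 culture 3 (adjusted p = 0.0642 for Sec61g and 0.0528 for Sec23a by edgeR).

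Whether a line's difference from CHO-S changed between the phases was tested as an interaction. In A0, 2 members passed, where 10.3% of 20871 genes did. Sec61b (-0.72 ± 0.23 (adjusted p = 0.0488)) and Arcn1 (-0.62 ± 0.18 (adjusted p = 0.0336)) were lower relative to CHO-S at stationary than at exponential phase, by edgeR. In A1, 1 member passed, where 7.6% of 19662 genes did, namely Spcs3 (-0.71 ± 0.20 (adjusted p = 0.0392), by edgeR). Without CHO-S stationary culture 1, 8 members passed in A0, where 17.2% of 20868 genes did, and 15 in A1, where 25.4% of 19655 did. Among them was Sec63, at 0.55 in A0 and 0.20 in A1, whose sign turned from -0.05 and -0.35 with all cultures. Cope was at -0.69 and -0.68 (-0.50 and -0.43 with all cultures), Ssr4 at 0.60 and 0.26 (0.65 and 0.37), and Furin at -0.52 and -0.55 (-0.24 and -0.19). The Furin sign also turned, to 0.17 in A0 and 0.14 in A1, without CHO-S stationary culture 2. Arcn1 still passed in A0 (-0.42 ± 0.13 (adjusted p = 0.0335), by edgeR) and Sec61b did not (-0.42 ± 0.15 (adjusted p = 0.0655)). Spcs3 still passed in A1 (-0.52 ± 0.08 (adjusted p = 8.28e-08), by edgeR). With culture 1 kept, leaving out a different culture ended the call of Sec61b in 11 fits (adjusted p = 0.0569 to 0.128), of Arcn1 in 10 (0.0512 to 0.0927) and of Spcs3 in 9 (0.0863 to 0.106), all by edgeR. In this unblocked edgeR fit with all cultures, no other member was shown to differ between phases. DESeq2 called 9 members in A0, where it called 14.4% of all genes, and 2 in A1, where it called 10.2%. With filterByExpr 4 passed in A0, where 17.6% of all genes did. The number called with culture 1 kept ranged from 0 to 5 in A0 when a different culture was left out: 5 without A0 exponential culture 4 (11.2% of all genes), 4 without CHO-S stationary culture 2 (9.76%), 3 without CHO-S stationary culture 3 (9.4%), and 0 or 1 without any 1 of the other 10 (6.61% to 9.26%). In A1 it was 0 without any 1 A1 culture or exponential CHO-S culture, where 4.01% to 5.46% of all genes passed. A0 cultures with equal numbers deviated together across the phases, though cultures 3 and 4 each did so more with a different number. CHO-S cultures with equal numbers did so in 2 of 3 pairs. With the number as a block within each line, 5 members passed in A0, where 11.2% of 20871 genes did. These were Sec61b, at -0.74 ± 0.21 (adjusted p = 0.0263), and Arcn1, at -0.60 ± 0.18 (adjusted p = 0.0288), by edgeR. The others were Ssr4, at 0.70 ± 0.20 (adjusted p = 0.0266), Srp14, at -0.98 ± 0.27 (adjusted p = 0.0193), and Sec11c, at -1.07 ± 0.31 (adjusted p = 0.0282), by edgeR, all with CHO-S culture 1 kept. In the unblocked fit without culture 1, Srp14 (-0.52) and Sec11c (-0.41) did not pass. In A1, whose numbers did not pair the cultures across phases, no member passed with the block, where 2.63% of 19662 genes did. The A1 call of Spcs3 was thus lost, at -0.70 ± 0.20 (adjusted p = 0.0944) by edgeR, with culture 1 kept.

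A longer list of 97 other secretory pathway genes had 92 measured members, of which Mia3, Tmed7 and Get3 stand under other symbols in the table and were matched by gene identifier. At exponential phase 29 were higher and 18 lower in A0, where 27.6% and 21.9% of all genes were, and 34 higher and 29 lower of 91 tested in A1, where 30% and 27.1% were. At stationary phase it was 25 and 14 in A0, where 20.7% and 19.3% of all genes were, and 14 and 10 in A1, where 18.2% and 16.6% were. Without culture 1 it was 34 and 28 in A0, where 28% and 23.8% were, and 31 and 31 in A1, where 29.9% and 27.5% were. The list's medians were 0.08 in A0 and 0.04 in A1 during growth, beside 0.14 and 0.05 over all genes tested. Tmed3, a p24 cargo receptor, was higher by 1.29 and 0.65 during growth, and Emc6, of the membrane insertion complex EMC, by 1.02 and 1.03. Mia3, which helps bulky cargo leave the ER, was at 335 to 343 CPM in exponential CHO-S, 129 to 174 CPM in A0 and 157 to 168 CPM in A1. Its log2 fold change was -1.23 and -1.07 then, and -1.32 and -1.11 at stationary phase (-0.97 and -0.79 without culture 1), where the A1 call was lost without A1 stationary culture 1 (adjusted p = 0.0512 by edgeR). Its relative Mia2 was higher, by 0.40 and 0.76 during growth and 1.24 and 1.16 at stationary phase (1.57 and 1.46 without culture 1). Gbf1, the exchange factor that loads Arf1 for COPI, was lower by values of -1.14 and -1.17 during growth, Arf5 by -1.01 and -1.02, and Ergic2 by -1.19 and -1.20. Camlg, which inserts tail-anchored proteins, was at 34.1 to 41.6 CPM in stationary CHO-S, 102 to 126 CPM in A0 and 75.7 to 81.2 CPM in A1, with no call during growth. It was higher at stationary phase by 1.56 and 1.01, or 1.55 and 0.95 without culture 1. Bnip1, an ER SNARE for returning vesicles, was higher at stationary phase by 1.61 and 1.15, or 1.55 and 1.06 without culture 1.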

How the data were processed

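RNA-seq read counts per gene were used as deposited. Per the methods of the authors, reads were aligned with STAR 2.5.4b to a Chinese hamster genome and counted with HTSeq 0.7.2. Counts of the 2 libraries of each exponential A0 culture were added. Reads that did not align, or fell on no gene or on several, stayed out of totals. A gene was tested if it had at least 1 count in at least 2 of the cultures compared and varied between them. Differences were tested with edgeR 4.0.16 (TMM scaling, quasi-likelihood, two-sided) in R 4.3.3, adjusted by Benjamini-Hochberg over all genes tested, at 0.05. The standard error is the log2 fold change over the root of its F statistic. The code was tested on simulated counts. Alternatives used DESeq2 1.42.0, limma 3.58.1 (voom), other scalings and filters, a replicate block, 3 lines in one fit, first A0 libraries and each culture left out. The replicate block between lines kept only culture numbers found in both lines, so it left out A0 culture 4. A0 cultures with the same number at both phases deviate together (4 of 4 pairs, correlation 0.189 to 0.4355), though cultures 3 and 4 each did so more with a different number (0.3299 against 0.2742, and 0.2743 against 0.189), so the A0 interaction was also fitted with that number as a block. The numbers come from the labels. Depth per culture, 1038026 to 26584337 counts, sets the precision of each CPM. The members and lists were chosen with earlier results of these data known. Per-culture values are given for 20 members: in each comparison with CHO-S the 3 largest rises and 3 largest falls among called members at 5 CPM or more whose groups did not overlap, the largest of each between A1 and A0, and 13 picked by role. Of other pathway genes, the 2 largest each way were chosen by the same rule, and some results are not reported here. Sequences were not analysed here.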

Additional observations from a re-analysis of the deposited data

Results flagged for a closer look

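In all, 7 values in 60 groups of a gene and A0 phase stood far from the other 3 cultures of their group, where chance alone gives about 1 in 20. Sec24d was 55 CPM in A0 stationary culture 3 (others 50.7 to 51.4). Sec24b was 95.4 CPM in A0 exponential culture 3 (others 78.0 to 80.9). It was 61 CPM in A0 stationary culture 1 (others 67.4 to 68.7). Mia2 was 225 CPM in A0 stationary culture 2 (others 196 to 200.2). Arf5 was 73.7 CPM in A0 exponential culture 1 (others 57.9 to 60.1). Sec61b was 32.4 CPM in A0 stationary culture 4 (others 38.4 to 38.8). Spcs2 was 152 CPM in A0 exponential culture 4 (others 206 to 216). In 3 members the difference from CHO-S changed between phases by edgeR, 2 in A0, where 10.3% of all genes did, and 1 in A1, where 7.6% did. The change was -0.7183 for Sec61b in A0, which did not pass without CHO-S stationary culture 1 (adjusted p = 0.0655 by edgeR). For Arcn1 in A0 it was -0.618. For Spcs3 in A1 it was -0.7118. With the replicate number as a block, 5 members passed in A0, where 11.2% of all genes did. With that block none passed in A1, where 2.63% of all genes did, and Spcs3 had an adjusted p of 0.0944 by edgeR.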

How the results depend on the processing

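Of the results for single genes under all alternatives, 3341 were the same, 103 stronger, 253 weaker and 54 reversed. The cause was not tested. Counts of genes or members and the members' medians are not in this tally. With library size only the values were 0.009 (Copa A0 exponential), 0.0107 (Mcfd2 A0 exponential), 11 (A0 stationary members higher), 0.0297 (Ssr2 A0 stationary), 0.0011 (Srp54 A0 stationary), 0.0991 (Srp72 A0 stationary), 8 (A1 stationary members higher), 3 (A1 stationary members lower), 0.1365 (Srp54 A1 stationary), 0.0636 (Srp19 A1 stationary) and 0.033 (Sec31a A1 stationary). With a replicate block the values were 0.0022 (Sec61b A0 exponential), 5055 (A0 stationary), 3 (A0 stationary members higher), 5 (A0 stationary members lower), 0.0623 (Ssr2 A0 stationary), 0.022 (Srp72 A0 stationary), 2 (A1 stationary members lower) and 11 (A1 over A0 exponential members lower). With first A0 libraries only the values were -0.0349 (Camlg A0 exponential) and 8 (A1 over A0 exponential members lower). With 3 lines in one fit the values were 12 (A1 exponential members higher), 11 (A0 stationary members higher), 0.0404 (Srp72 A0 stationary), 6 (A1 stationary members higher), 10 (A1 stationary members lower), 0.0201 (Srp54 A1 stationary), 0.0095 (Srp19 A1 stationary), 9 (A1 over A0 exponential members lower), 3778 (A1 over A0 stationary), 2 (A1 over A0 stationary members higher) and 4 (A1 over A0 stationary members lower). With DESeq2 the values were 10 (A0 stationary members higher), 9 (A0 interaction members called), 2 (A1 interaction members called) and 0.0447 (Arf1 A1 interaction). With limma-voom the values were 8 (A0 stationary members higher), 0.1719 (Srp19 A0 stationary), 0.0594 (Srp72 A0 stationary), 0.0748 (Srp54 A1 stationary), 0.2335 (Srp19 A1 stationary) and -0.0278 (Sec13 A1 stationary). With filterByExpr the values were 8 (A0 stationary members higher), -0.0243 (Sec13 A1 stationary) and 4 (A0 interaction members called). With median-of-ratios size factors the values were 1 (A0 interaction members called). With a replicate block within each line the values were 5 (A0 interaction members called), 0.0596 (Sec63 A0 interaction), 518 (A1 interaction), 0 (A1 interaction members called) and 0.1168 (Arf1 A1 interaction). Replicate numbers did not pair the lines (0 of 3 pairs over 0.1 in each of the 6 comparisons), nor A1 (1 of 3) or CHO-S (2 of 3, -0.0074 to 0.1238) across phases, so those block results rest on the number alone. The A0 interaction block also holds the CHO-S numbers. In comparisons of A0 with another line, the replicate block also leaves out A0 culture 4, so the 2 changes are not separated. Beside the members lower in exponential A1 over A0, 16.9% of all genes were lower with the replicate block. That share was 14.7% with first A0 libraries only and 16.4% with 3 lines in one fit. With median-of-ratios size factors, 10.6% of all genes passed in the A0 interaction. With library size only, the median of all genes moved by 0.1092 in stationary A0 and 0.1564 in stationary A1, and the share of called genes that were higher from 51.8% to 58.5% and from 52.3% to 63.3%. The ranges over fits that each left out 1 culture follow, with the share of all genes called the same way in brackets. A0 exponential gave genes called 8322 to 10261, members higher 15 to 17 (22.7% to 28.6%) and members lower 14 to 16 (19.3% to 23.8%). Sec11c was -0.0328 to 0.1649 there, Sec61b -0.1116 to 0.0176, Copa -0.0706 to 0.0007 and Mcfd2 -0.1187 to 0.0534. A1 exponential gave genes called 9754 to 10304, members higher 18 to 23 (27.9% to 29.4%) and members lower 17 to 21 (25.8% to 27.6%). Camlg was -0.0079 to 0.0626 there. A0 stationary gave genes called 5475 to 9831, members higher 2 to 17 (15.9% to 28%) and members lower 8 to 15 (13.5% to 23.8%). Ssr2 was -0.3806 to 0.2218 there, Sec61a1 -0.0466 to 0.2647, Srp54 -0.23 to 0.1866 and Srp19 -0.4921 to 0.4525. Srp72 was -0.1459 to 0.2516, Sec24a -0.1528 to 0.5017 and Cope -0.5264 to 0.0467. A1 stationary gave genes called 4051 to 10451, members higher 3 to 13 (11.1% to 29.9%) and members lower 2 to 20 (10.9% to 27.5%). Srp54 was -0.1949 to 0.2378 there, Srp19 -0.4752 to 0.4878, Sec13 -0.1748 to 0.1106, Cope -0.4968 to 0.0533 and Arf1 -0.2531 to 0.3369. A1 over A0 exponential called 3160 to 6015 genes, members higher 6 to 9 (7.32% to 14.2%) and lower 1 to 12 (8.67% to 16.6%). A1 over A0 stationary called 4863 to 6460 genes, members higher 6 to 11 (12.1% to 16.4%) and lower 9 to 14 (13.5% to 17.7%). A0 interaction gave genes called 1375 to 3586 and members called 0 to 8 (6.61% to 17.2% of all genes called). Sec62 was -0.2822 to 0.409 there, Sec63 -0.2661 to 0.546 and Furin -0.5194 to 0.1655. A1 interaction gave genes called 782 to 4990 and members called 0 to 15 (4.01% to 25.4% of all genes called). Sec62 was -0.4165 to 0.2509 there, Sec63 -0.5732 to 0.2017, Arf1 -0.3416 to 0.1032 and Furin -0.5531 to 0.1421. The count of CHO-S stationary culture 1 limits every stationary comparison with CHO-S, and 3 or 4 cultures of 1 clone limit each line.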
